A study of Mus musculus with 6 samples.

Results

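The seminal vesicle secretory genes Svs2, Svs3a, Svs4, Svs5, Svs6 and Pate4 were followed on arrays of mouse prostate. All probe sets whose platform annotation gave exactly 1 symbol, and that symbol one of the 6, were taken, which gave 11 of 34945 probe sets with a single symbol and 6 of 18193 genes. The genes were chosen by their signal on these arrays, as transcripts of this gland had read high on 1 of them, so their levels and group differences are a description with no test. The arrays compared 3 TRAMP mice given OSU-CG5, a code-named compound, at 100 mg/kg per day by oral gavage with 3 TRAMP mice given vehicle. The descriptions of 2 of the OSU-CG5 samples end in another compound number, while their tissue source label gives OSU-CG5, which was followed. All 6 were intact males, F1 mice of a C57BL/6 TRAMP by FvB cross, dosed for 4 weeks from 6 to 10 weeks of age, with tissue taken 2 to 4 h after the last dose. TRAMP mice, vehicle mice included, carry SV40 T antigens under a probasin promoter that acts in prostate epithelium. The RNA was that of dissected dorsal and lateral lobes, and each value is a log2 signal made by the authors with RMA, in which 1 unit is a doubling.

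The seminal vesicles are androgen-dependent glands that lie beside the prostate and supply most of the fluid of the ejaculate. Their epithelium secretes a small set of very abundant proteins. In rodents some of these are cross-linked by the transglutaminase Tgm4 of the coagulating gland, the anterior lobe of the prostate, into the copulatory plug. The Svs genes named here are related to the semenogelins and sit together at 1 locus beside genes of the WFDC protease inhibitors, whereas Pate4, also called Svs7, belongs to another family of small secreted proteins. In a bulk sample, fewer cells of a type and less RNA per cell cannot be told apart, and neither can RNA from a neighbouring gland and expression within the prostate lobes.

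The 5 Svs genes lie on chromosome 2 and Pate4 on chromosome 9 (GRCm38.p6). The 250 bases before the annotated start of each Svs gene are shown because the 5 genes are neighbours and read together on the arrays. The sequences are RefSeq's, from the GRCm38.p6 build, written 5′ to 3′ on the gene's own strand. A start was found for 5 of the 6 genes, and Pate4 had no entry. Capitals mark TATAAA (the TATA box letters), AGAACA (a steroid receptor site) and GATAAG (letters that GATA factors bind), on either strand. No marked stretch overlapped another in these 5 sequences.
Svs2, chr2:164238342-164238591, minus strand: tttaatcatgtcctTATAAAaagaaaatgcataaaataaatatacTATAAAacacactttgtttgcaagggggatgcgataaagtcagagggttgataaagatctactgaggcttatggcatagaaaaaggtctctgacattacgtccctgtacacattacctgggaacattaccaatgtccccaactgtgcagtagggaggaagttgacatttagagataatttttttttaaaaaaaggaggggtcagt
Svs4, chr2:164278308-164278557, minus strand: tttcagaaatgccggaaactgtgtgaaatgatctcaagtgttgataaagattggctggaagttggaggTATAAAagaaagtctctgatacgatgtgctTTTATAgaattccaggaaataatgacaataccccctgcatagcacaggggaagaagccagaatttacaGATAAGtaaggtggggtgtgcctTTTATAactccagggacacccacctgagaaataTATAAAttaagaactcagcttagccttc
Svs3a, chr2:164289017-164289266, plus strand: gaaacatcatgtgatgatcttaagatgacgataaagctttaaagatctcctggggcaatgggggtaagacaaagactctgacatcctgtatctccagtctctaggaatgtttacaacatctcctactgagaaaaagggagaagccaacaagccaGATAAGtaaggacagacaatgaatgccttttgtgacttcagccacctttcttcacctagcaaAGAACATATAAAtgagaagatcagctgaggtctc
Svs6, chr2:164316501-164316750, plus strand: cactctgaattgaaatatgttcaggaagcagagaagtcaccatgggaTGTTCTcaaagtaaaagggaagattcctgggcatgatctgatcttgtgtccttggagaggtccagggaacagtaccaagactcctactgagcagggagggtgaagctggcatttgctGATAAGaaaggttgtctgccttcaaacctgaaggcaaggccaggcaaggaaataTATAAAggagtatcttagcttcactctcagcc
Svs5, chr2:164332515-164332764, plus strand: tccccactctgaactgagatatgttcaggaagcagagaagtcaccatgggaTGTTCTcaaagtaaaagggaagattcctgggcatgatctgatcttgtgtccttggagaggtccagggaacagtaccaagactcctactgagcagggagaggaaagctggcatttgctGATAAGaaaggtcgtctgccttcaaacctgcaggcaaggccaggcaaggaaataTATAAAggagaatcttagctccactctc

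The Svs5 and Svs6 sequences were nearly the same, with 237 identical bases over an alignment of 254 positions with gaps (93.3%). The other pairs of the 5 genes were between 46.1% and 60.7% identical. The Svs3a sequence was 97.6% identical to that of Svs3b, a close copy of Svs3a at the same locus. Svs3b had no probe set of its own here, and 2 probe sets annotated to more than 1 gene, a member among them, were left out.

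TATAAA stood in all 5 sequences on either strand, against 13% of 27025 promoters of the same length. Counting back from the base before the start as -1, it began at -28 in Svs3a, Svs4 and Svs5 and at -32 in Svs6, and in Svs2 only at -236 and -205. GATAAG stood in Svs3a, Svs4, Svs5 and Svs6 and in 6.6% of all promoters. It began between -96 and -82 in these 4 genes. AGAACA, one arm of the palindrome read by steroid receptors, stood in Svs3a, Svs5 and Svs6 and in 16.2% of all promoters. The full palindrome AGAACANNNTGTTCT was in 0 of the 5 and in 0.0037% of all promoters. These are matches of letters only, and binding was not measured.

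The arrays were not equally alike. Pearson correlations over all probe sets between vehicle replicate 2 and the other arrays were 0.966 to 0.981, against 0.987 to 0.995 among the other 5. Dorsal and lateral lobe products read high on all 6 arrays. Pbsn, the gene of probasin, lay between 13.28 and 13.91 and Msmb, a secreted prostate protein, between 12.26 and 13.34. Tgm4, the enzyme of the anterior lobe, lay between 13.76 and 14.01, so these levels do not tell the lobes apart. Array medians lay between 5.30 and 5.38 and the 25th percentiles between 3.87 and 4.05. No detection calls were used, so whether the lowest readings lay above background was not tested.

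At the probe set of highest mean, all 6 genes read highest on vehicle replicate 2 and next highest on vehicle replicate 3. For Svs3a the lead of vehicle replicate 3 over the highest OSU-CG5 array was only 0.04. On the other probe set of Svs2, vehicle replicate 1 came second. Vehicle replicate 2 lay above the highest of the other 5 arrays by 2.45 to 3.11 log2 units, which is 5.48-fold to 8.62-fold. Vehicle replicate 1 lay within the range of the OSU-CG5 arrays for 5 of the 6 genes and below it for 1, Svs3a. The groups overlapped for all 6 genes.

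Svs2 encodes a major clotting protein of the seminal vesicle, one of the proteins that form the plug. Its brighter probe set read 3.31, 2.99 and 2.50 in the OSU-CG5 mice, against 3.01, 6.13 and 3.56 in the vehicle mice. Only vehicle replicate 2 was clearly apart, 2.57 above the next array, and the other 5 arrays spanned 1.06. Its other probe set read 2.88, 3.05 and 2.89 with OSU-CG5, against 3.07, 3.30 and 2.92 with vehicle. That probe set was near the lower end of the scale on every array. The brighter one was also low on every array but vehicle replicate 2, below the 25th percentiles of 3.87 to 4.05. The excess of the second probe set on vehicle replicate 2 was 0.23, so the 2 probe sets of Svs2 disagreed.

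Svs3a, a second semenogelin-like protein of the same fluid, was the most even of the genes outside vehicle replicate 2. It read 4.18, 3.85 and 3.91 with OSU-CG5, against 3.79, 7.06 and 4.22 with vehicle. The 5 arrays other than vehicle replicate 2 lay within 0.42 of each other, and that array was 2.84 above them. Those 5 readings were low, close to the 25th percentiles of 3.87 to 4.05.

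Svs4, a small androgen-regulated secretory protein, varied most between arrays. It read 6.36, 5.46 and 3.65 with OSU-CG5, against 4.45, 9.65 and 7.20 with vehicle. Among the other 5 arrays it still spanned 3.54, and among the OSU-CG5 mice 2.71. Vehicle replicate 3 stood 0.84 above the highest OSU-CG5 array, and vehicle replicate 1 was lower than both OSU-CG5 replicates 1 and 2.

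Svs5, a smaller protein of the same locus, had 5 probe sets, all highest on vehicle replicate 2. The one with the highest mean read 6.10, 5.92 and 4.54 with OSU-CG5, against 5.35, 9.69 and 6.62 with vehicle. The excess of vehicle replicate 2 over the next array ran from 2.46 to 4.41 over the 5 probe sets, which is 5.51-fold to 21.3-fold. The 5 disagreed on which array came second. It was vehicle replicate 3 for 3 of them and OSU-CG5 replicate 1 for 2, so the place of vehicle replicate 3 rests on the choice of probe set for this gene. The probe set with the smallest excess read 4.39, 4.24 and 3.98 with OSU-CG5, against 4.44, 6.97 and 4.51 with vehicle. It was the 1 probe set of the 11 whose groups did not overlap, with OSU-CG5 replicate 1 and vehicle replicate 1 0.05 apart. Over all probe sets the groups did not overlap for 23.6%. OSU-CG5 replicate 3 was lowest for all 5.

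Svs6, whose promoter is nearly that of Svs5, read 4.17, 3.79 and 4.00 with OSU-CG5, against 3.90, 7.82 and 4.71 with vehicle. Vehicle replicate 2 was 3.11 above the next array, the widest such margin among the 6 genes at the probe set of highest mean. The OSU-CG5 mice spanned 0.39, at readings close to the 25th percentiles of 3.87 to 4.05. For Svs5 they spanned 1.56 at the probe set of highest mean, and 0.41 to 1.77 over all its probe sets. Probe sets differ in their own response, so the levels of Svs5 and Svs6 cannot be set against each other.

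Pate4, a small cysteine-rich protein of the seminal fluid, also had vehicle replicate 2 highest and vehicle replicate 3 second, although it lies on another chromosome. Below these, OSU-CG5 replicate 2 was above OSU-CG5 replicate 1, unlike in the Svs genes. The order of the lower arrays also varied among the Svs genes themselves. It read 3.18, 3.32 and 2.77 with OSU-CG5, against 2.88, 7.12 and 4.16 with vehicle. All arrays but vehicle replicates 2 and 3 were below the 25th percentiles of 3.87 to 4.05. Vehicle replicate 2 was 2.96 above vehicle replicate 3, which was itself 0.84 above the highest OSU-CG5 array.

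**Figure D1:**
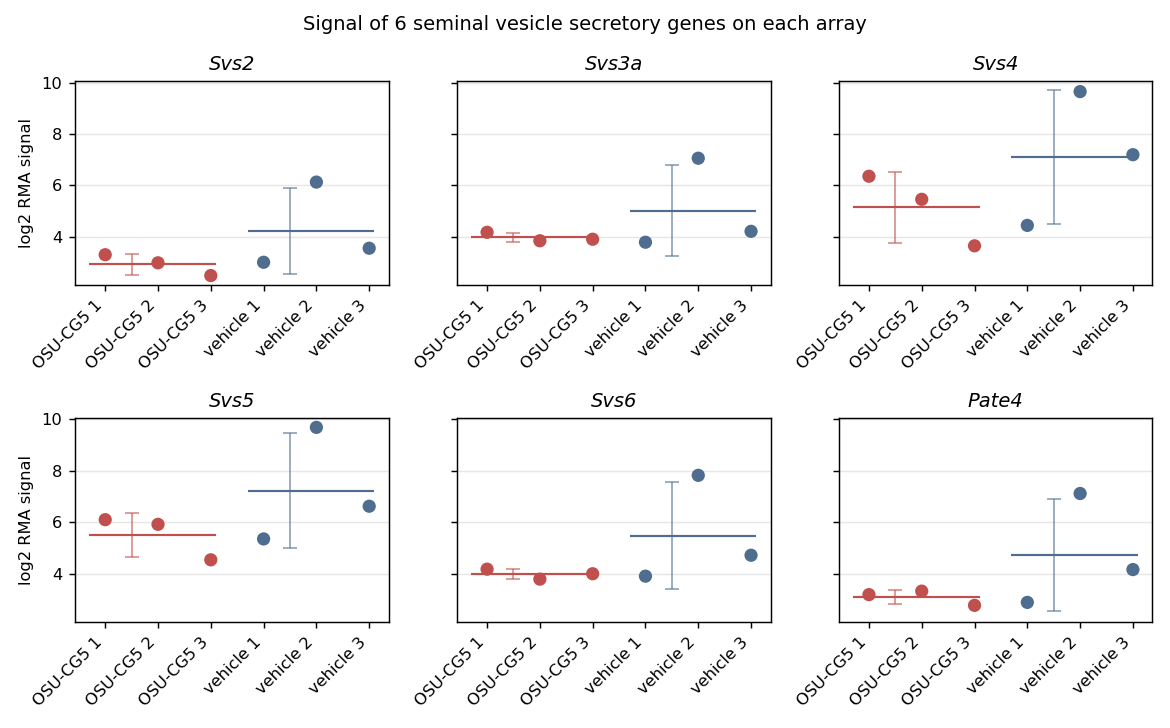
Log2 RMA signal (vertical axis) of the 6 genes on each array (horizontal axis), OSU-CG5 in red and vehicle in blue, with horizontal lines for group means and bars for 1 SD (n = 3). Vehicle replicate 2 is the highest point in every panel, and vehicle replicate 1 lies among or just below the OSU-CG5 points.

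**Figure D2:**
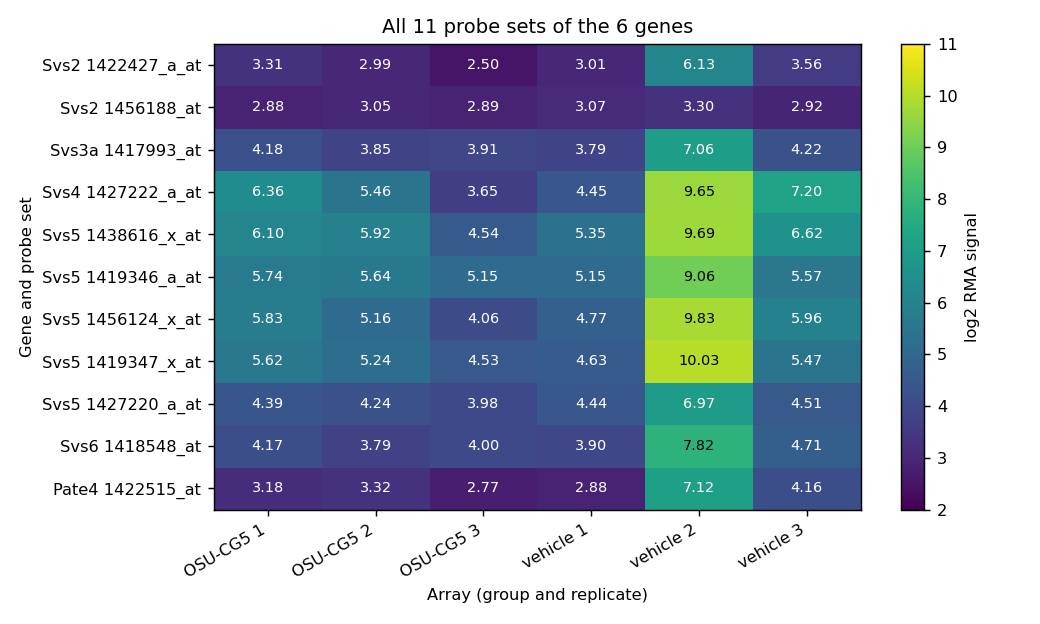
Log2 RMA signal of all 11 probe sets (rows) on the 6 arrays (columns), with the value printed in each cell and coded by colour. The column of vehicle replicate 2 is the brightest for 10 probe sets by at least 1 log2 unit, and the second probe set of Svs2 is low throughout.

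The mean over the 6 genes summarised the order of the arrays. It was 4.55, 4.22 and 3.56 in the OSU-CG5 mice, against 3.90, 7.91 and 5.08 in the vehicle mice. Among OSU-CG5 arrays replicate 1 was the highest for 5 genes, and replicate 3 was the lowest of all 6 arrays for 4 genes. The gap between OSU-CG5 replicates 1 and 3 came mainly from Svs4 and Svs5. Vehicle replicate 1 was below OSU-CG5 replicate 1 for all 6 genes.

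This excess was uncommon among probe sets. Of 45037 probe sets, 17 (0.0377%) read at least 1 log2 unit higher on vehicle replicate 2 than on every other array. Of these 17, 10 belonged to the 6 genes, 5 to other genes with a single symbol, and 2 had several symbols or none. Vehicle replicate 2 was the highest array for 32.4% of all probe sets and for 11 of the 11 probe sets of the 6 genes. Because the genes were picked for this excess, the share describes the array and tests nothing. In the other direction, 2.32% of probe sets read at least 1 unit lower on vehicle replicate 2 than on every other array.

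**Figure D3:**
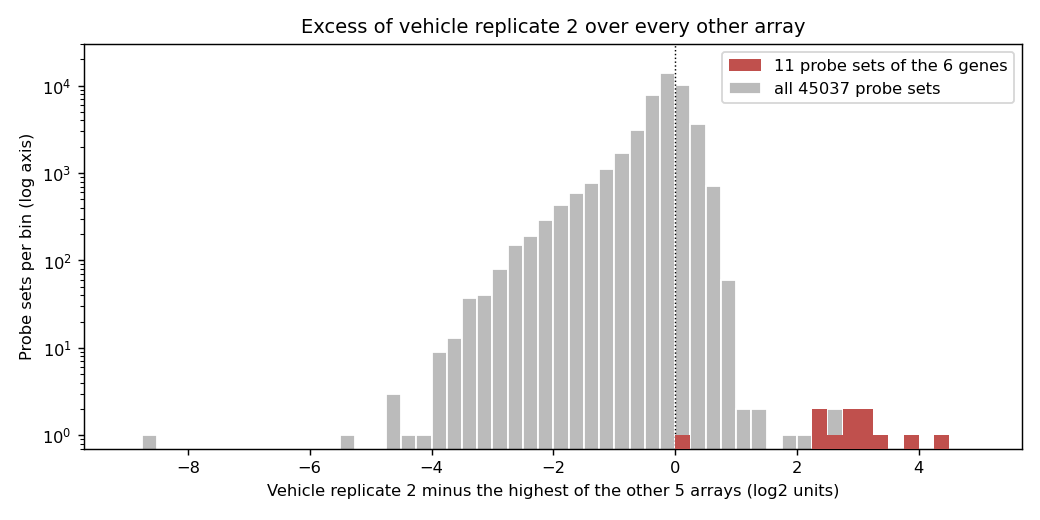
Signal of vehicle replicate 2 minus the highest of the other 5 arrays (horizontal axis, log2 units) for all 45037 probe sets in grey and the 11 probe sets of the 6 genes in red, counted in bins on a log axis. Red bars lie from 2.45 to 4.41, apart from the second probe set of Svs2 at 0.23, and few grey bars reach past 1.

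Among named genes outside the 6 with a mean of at least 4, those with the widest margins on vehicle replicate 2 were of mixed kinds. The M-band protein gene Myom2 and the fast myosin gene Myh4, both of skeletal muscle, read 6.77 and 7.37 there, margins of 1.33 and 1.25. Jun, an immediate early transcription factor, read 7.22 there, a margin of 1.18. Cotl1, an actin-binding protein, and Cryl1, a crystallin-like enzyme, had margins of 0.99 and 0.98. Ceacam10, described next, had 1.05. Among named genes with that minimum mean, Hnrnpu, Cr1l, Rbm39, Zcchc7 and Phip dropped farthest below every other array on vehicle replicate 2. They lay 2.74 to 3.87 log2 units below the lowest of the other arrays. Probe sets without a single symbol were not ranked.

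Other genes known from mouse seminal vesicle were examined beside the 6. Of 12 listed symbols, 6 were measured by a probe set of that gene alone, and none of the 6 passed the adjusted threshold between the groups (limma, Benjamini-Hochberg over all probe sets), as held for 0% of all probe sets. At an unadjusted p under 0.05, 1 of the 6 was lower with OSU-CG5 and 0 higher, against 6.8% of all probe sets lower, 9.63% higher and 16.4% in either direction. Their median log2 difference, OSU-CG5 minus vehicle, was -0.21, against -0.06 over all probe sets. It turned to 0.04 when only the 2 genes with a mean of at least log2 4, Ceacam10 and Spink1, were kept.

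Spinkl, a relative of the Kazal-type protease inhibitors, read 3.10, 2.61 and 2.82 with OSU-CG5, against 2.96, 4.98 and 3.22 with vehicle. It had the order of the 6 genes at the top, with vehicle replicate 2 ahead by 1.77 and vehicle replicate 3 second. The lead of vehicle replicate 3 over the highest OSU-CG5 array was only 0.11. All arrays but vehicle replicate 2 read below the 25th percentiles of 3.87 to 4.05. Ceacam10, an adhesion-family protein secreted by this gland, read 3.76, 3.90 and 3.78 with OSU-CG5, against 4.54, 5.59 and 4.36 with vehicle. Its groups did not overlap, and the log2 difference was -1.01 (SE 0.29; limma adjusted p = 0.185). Vehicle replicate 1 was here above vehicle replicate 3, unlike in the 6 genes. Its other 2 probe sets lay between 3.62 and 4.57 on all arrays, both with overlapping groups. Sva, the seminal vesicle antigen, read 3.80, 3.46 and 3.85 with OSU-CG5, against 3.76, 4.29 and 3.78 with vehicle, a margin of 0.44 for vehicle replicate 2. Sval1 and Sval2 ranged from 1.94 to 2.41, at the lower end of the scale, on all arrays.

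Spink1, a trypsin inhibitor of mouse prostate and seminal vesicle, had another order. It read 10.55, 11.25 and 13.22 with OSU-CG5, against 10.48, 11.02 and 10.23 with vehicle. Its highest array, OSU-CG5 replicate 3, was the array on which 4 of the 6 genes were lowest, and vehicle replicate 2 came after OSU-CG5 replicates 3 and 2. Its log2 difference was 1.10 (SE 0.59; limma adjusted p = 0.384).

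Most secretory products of the dorsal and lateral lobes were low on vehicle replicate 2. Of 5 measured dorsal and lateral lobe products, 4 were lowest on vehicle replicate 2, by 0.39 to 1.01 log2 units below the next array. Msmb read 13.33, 13.34 and 13.27 with OSU-CG5, against 13.33, 12.26 and 13.30 with vehicle. Fgl1, a secreted fibrinogen-like protein, read 11.43, 10.74 and 10.65 with OSU-CG5, against 10.93, 9.70 and 11.22 with vehicle. Pate14, a relative of Pate4, was also lowest there, at 12.78 against 13.52 to 13.84 on the other 5 arrays. The plug-forming enzyme gene Tgm4 was even, at 14.01, 13.85 and 13.76 with OSU-CG5 and 13.77, 13.81 and 13.78 with vehicle. The highest reading on an array was 14.37 to 14.49, and whether Tgm4 was near saturation was not tested. The log2 differences between the groups for the 5 dorsal and lateral products were all above 0, whereas 60.5% of all probe sets were below 0. Their median was 0.24, and -0.01 without vehicle replicate 2. None of the 5 had an unadjusted p under 0.05, against 16.4% of all probe sets.

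Lists for prostate epithelium and for other tissues of the dissection gave smaller departures on vehicle replicate 2. The mean of 6 epididymis and vas deferens genes was 3.94, 3.99 and 3.97 with OSU-CG5, against 4.18, 4.22 and 3.94 with vehicle, and 0 of the 6 had a margin of 1. The mean of 6 urothelial genes was 6.60, 6.58 and 6.63 with OSU-CG5, against 6.89, 6.84 and 6.80 with vehicle. For 7 luminal epithelial genes it was 10.92, 10.73 and 10.91 with OSU-CG5, against 10.85, 11.27 and 10.96 with vehicle. Of these 7, 6 were highest on vehicle replicate 2 (32.4% of all probe sets were), and 0 had a margin of 1. The 11 androgen-responsive genes averaged 8.98, 8.84 and 8.85 with OSU-CG5, against 8.85, 9.07 and 8.87 with vehicle, with 1 higher and 1 lower at an unadjusted p under 0.05, near the 9.63% and 6.8% of all probe sets.

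Muscle genes moved with the 6 genes in part. The summed log2 level of 10 skeletal muscle genes was 46.74 to 53.91 in the OSU-CG5 mice, against 54.56 to 60.28 in the vehicle mice. It was highest on vehicle replicate 2 and lowest on OSU-CG5 replicate 3, the arrays at the ends of the 6-gene mean. Between these ends the orders differed. Vehicle replicate 1 was second in the muscle sum, at 56.24, but its 6-gene mean of 3.90 was above only OSU-CG5 replicate 3. In limma 7 of the 10 were lower at an unadjusted p under 0.05 (6.8% of all probe sets were lower at that threshold) and 0 passed adjustment. The 8 smooth muscle genes summed to 70.98 to 73.37 with OSU-CG5, against 72.86 to 75.12 with vehicle, with 4 lower at an unadjusted p under 0.05. The part of muscle in the signal of the 6 genes was not tested.

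**Figure D4:**
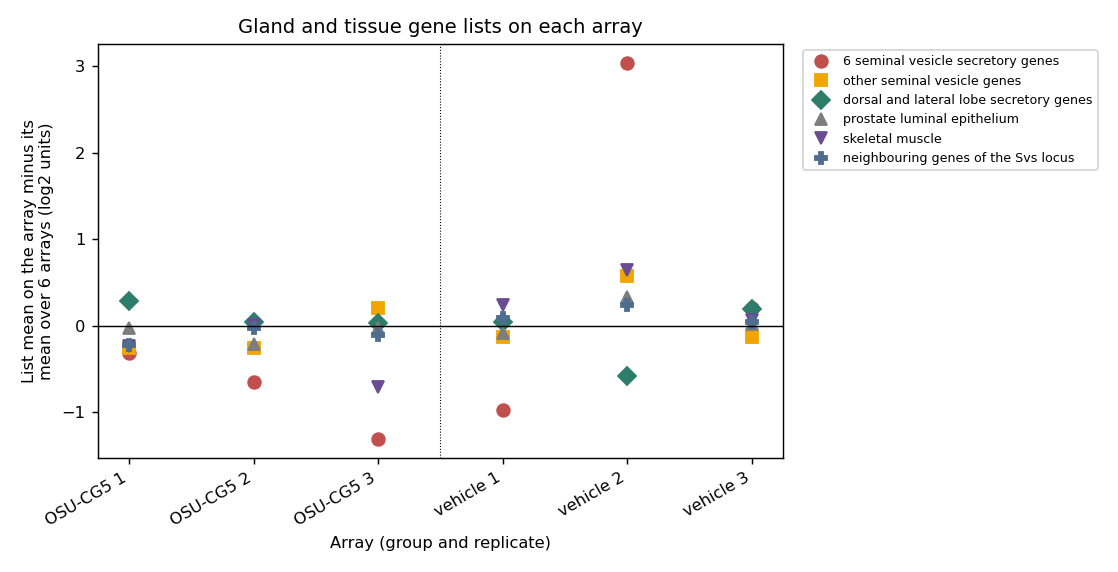
Mean log2 signal of each gene list on an array minus the list's mean over the 6 arrays (vertical axis), for OSU-CG5 arrays on the left and vehicle arrays on the right of the dotted line. On vehicle replicate 2 the 6 genes stand 3.04 above their mean, while the dorsal and lateral lobe products are at -0.58.

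The other genes of the Svs locus had smaller margins on vehicle replicate 2. The 15 annotated genes on either side of the 5 Svs genes, with those between them, were 31 genes, of which 23 were measured. Vehicle replicate 2 was the highest array for 11 of the 23, against 32.4% of all probe sets, and none had a margin of 1. The widest margin was 0.57, for Wfdc12, an inhibitor of the WFDC family. Their median log2 difference between the groups was -0.22, with 20 of 23 below 0, against 60.5% of all probe sets. In limma 7 of them had an unadjusted p under 0.05, each lower with OSU-CG5 (6.8% of all probe sets were lower at that threshold), and 0 passed adjustment. Wfdc6a differed by -0.79 (SE 0.16; limma adjusted p = 0.142) and Wfdc15b by -0.53 (SE 0.13). Slpi, the secretory leukocyte protease inhibitor, which lies next to Svs5, differed by -0.51 (SE 0.13; limma adjusted p = 0.172). Slpi read 6.78, 6.79 and 6.68 with OSU-CG5, against 7.46, 7.27 and 7.07 with vehicle, so vehicle replicate 1 was its highest array.

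Among other probe sets of wide span, few followed the mean of the 6 genes over the arrays. Likeness was taken as Pearson's r over the 6 arrays with that mean, among 393 probe sets of other named genes that spanned at least 2 log2 units. As 1 array sets most of the mean's spread, r mainly states whether a gene was high on that array. Only Spinkl, at r = 0.97, was above 0.9. It reached the span of 2 only through vehicle replicate 2, as the other arrays spanned 0.61. Next came Myom2 at 0.86, Zfand3 at 0.81, Myh1 at 0.74 and Myh4 at 0.68, and the remaining 5 of the 10 nearest (Car3, Mbp, Prg4, H13 and Adipoq) were between 0.10 and 0.54. Myom2 and Zfand3 also reached the span of 2 only through vehicle replicate 2, as the other arrays spanned 1.49 and 1.47. Of the 393, 380 had r below 0. A filter on span also takes in probe sets that dropped on vehicle replicate 2, and drops there were the more common. Over all probe sets 2.32% lay at least 1 unit below every other array on vehicle replicate 2 and 0.0377% at least 1 above. The count below 0 therefore follows in part from the filter.

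The group difference of the 6 genes rested mostly on vehicle replicate 2. The mean over the 6 genes was 4.11 ± 0.50 with OSU-CG5 and 5.63 ± 2.06 with vehicle (SD, n = 3 each), a log2 difference of -1.52. All 6 differences were below 0, as were 60.5% over all probe sets. The log2 difference of Svs4 was -1.94, from 5.16 ± 1.38 with OSU-CG5 and 7.10 ± 2.60 with vehicle (SD, n = 3 each). It was -1.70 for Svs5, with 5.52 ± 0.85 in OSU-CG5 mice and 7.22 ± 2.23 in vehicle mice, and -1.63 for Pate4, with 3.09 ± 0.29 in OSU-CG5 mice and 4.72 ± 2.17 in vehicle mice. For Svs6 it was -1.49, with 3.98 ± 0.19 in OSU-CG5 mice and 5.48 ± 2.07 in vehicle mice. Svs2 and Svs3a had differences of -1.30 and -1.04. The vehicle SD exceeded the OSU-CG5 SD in all 6 genes. Each difference was smaller than the SD of its vehicle group. Of the 19 probe sets in the whole table with a log2 difference of -1 or lower (0.0422%), 10 were of the 6 genes. All probe sets of Svs5 were among these 10. As the genes were picked for their signal on these arrays, this share tests nothing.

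Without vehicle replicate 2 the 6 differences lay between -0.66 for Svs4 and -0.03 for Svs3a. They were -0.35 for Svs2, -0.47 for Svs5, -0.32 for Svs6 and -0.43 for Pate4, with vehicle then resting on replicate 1, among or below the OSU-CG5 arrays, and replicate 3, above them. Without vehicle replicate 1 they lay between -3.27 for Svs4 and -1.66 for Svs3a. Without OSU-CG5 replicate 3, the array of lowest signal, Svs4 was -1.19 and Svs5 -1.21. The sign did not change in any of the 6 genes when any single array was left out.

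**Figure D5:**
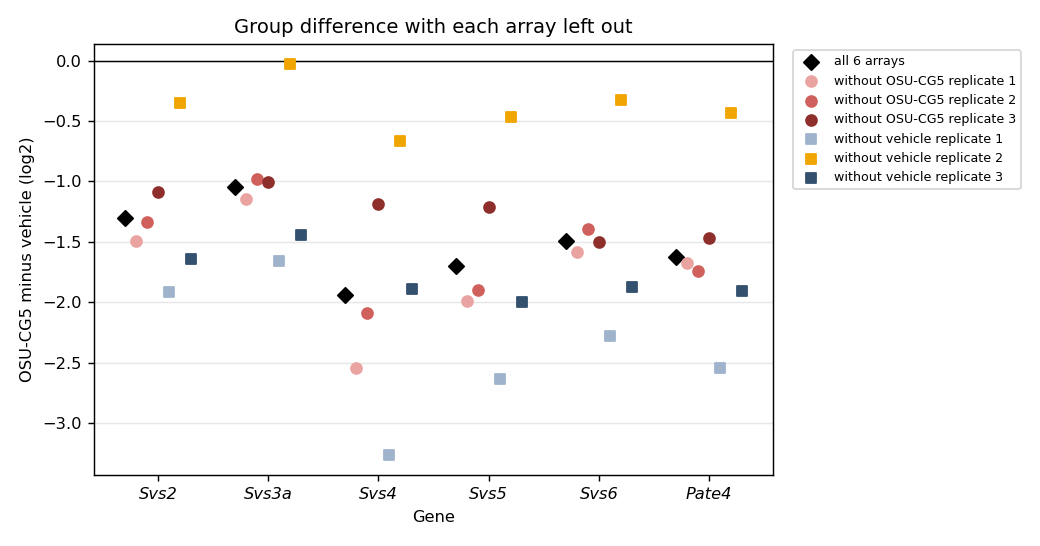
Log2 difference, OSU-CG5 minus vehicle (vertical axis), of the 6 genes with all arrays (black diamonds) and with each array left out (coloured points). Orange squares, without vehicle replicate 2, lie nearest to 0 for every gene, and pale blue squares, without vehicle replicate 1, lie farthest from it.

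Other features of vehicle replicate 2 stood beside its seminal vesicle signal. The 3' minus 5' signal of the Gapdh controls, a sign of RNA integrity, was 2.72, 3.03 and 2.94 with OSU-CG5, against 2.15, 2.26 and 2.76 with vehicle, so vehicle replicate 2 lay close to vehicle replicate 1. For the beta-actin controls it was 2.97, 3.11 and 3.01 with OSU-CG5, against 2.91, 2.92 and 3.15 with vehicle. The groups overlapped on both controls. The median of probe sets without a single gene symbol minus that of the named ones (mean of at least 6) was -0.29, -0.16 and -0.29 with OSU-CG5, against -0.54, -1.07 and -0.48 with vehicle. The part of these features in the signal of the 6 genes was not tested.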

How the data were processed

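Each of the 6 arrays was grouped by the treatment in its tissue source label, although the descriptions of 2 OSU-CG5 samples end in another compound number. The authors deposited log2 signals, 1 for each probe set, and the submitters' processing notes name RMA, of which no version is given in the sources used here. RMA brings arrays to a shared distribution. Per the labels' protocols, cRNA was made from 2 ug of Trizol RNA.

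Of 45101 probe sets, 64 Affymetrix controls were dropped. Among the 45037 kept, 34945 were annotated to 1 symbol, 932 to several and 9160 to none here. RefSeq's table held the gene number of 34741, with 0 symbols changed. The probe set with the highest mean stood for a gene.

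Groups were compared with limma 3.58.1 in R 4.3.3 (lmFit, eBayes) as OSU-CG5 minus vehicle on the values as deposited, unfiltered, and p-values were adjusted by Benjamini-Hochberg over all 45037 at 0.05. The script was tested on simulated data. SE is moderated, and SD is over 3 arrays, whose number limits the precision. No label marks a batch. Named were the 6 genes, the 10 nearest by likeness, the 10 highest and 5 lowest against the other arrays on vehicle replicate 2, and list genes. Members and lists were chosen with earlier results of these data known.

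Alternatives were median centring, repeated quantile normalization, cyclic loess, a minimum mean of log2 4 or 6, all probe sets of a gene, other variance models, array weights and leaving out each array.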

Additional observations from a re-analysis of the deposited data

How the results depend on the processing

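The mean log2 difference of the 6 genes was -1.52 as reported and between -1.82 and -1.38 under other normalizations, filters on low means and use of all probe sets. With a minimum mean of log2 6 only 2 of the 6 genes were left. Leaving out each array gave -2.38 to -0.38, the ends without vehicle replicate 1 and without vehicle replicate 2. No other normalization moved the 6-gene mean of an array by more than 0.0932. The count of probe sets with a limma adjusted p under 0.05 was 0 with all arrays, with 7399 at an unadjusted p under 0.05. It was 822 with array quality weights and from 0 to 885 when each array was left out, with 400 without vehicle replicate 2 and 885 without vehicle replicate 3. It stayed 0 without any other array, under the other normalizations and filters, without moderation and with an intensity trend and robust prior. The median of the other seminal vesicle genes was 0.04 with a minimum mean of log2 4 and 1.10 with a minimum of log2 6, where 1 gene, Spink1, was left. Of the 10 genes most like the 6, 1 was among the 10 found over the 5 arrays without vehicle replicate 2. The pools differed too, with 393 probe sets that spanned at least 2 over 6 arrays and 934 that spanned at least 1 over 5. The overlap therefore does not show the effect of leaving out the array alone. The dorsal and lateral median changed sign, to -0.01, without vehicle replicate 2. No paired analysis was possible because the replicate numbers only name the mice.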
